A study of Homo sapiens with 4 samples.

Results

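The ABC transporters that move drugs and metal conjugates were followed through 2 lists of MTF-1 peaks from MDA-MB-231 cells, an established human breast cancer cell line. The set held 8 genes, ABCB1, ABCB6, ABCC1, ABCC2, ABCC3, ABCC4, ABCC5 and ABCG2, and all 8 were found among the 19970 protein-coding genes of GENCODE 44 on chromosomes 1 to 22 and X. The genes were chosen by name for their role in efflux, by a rule that uses no peak but with earlier results of these data known. For each gene, all peaks with at least 1 base in the gene or in the 20 kb on either side of it were taken.

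MTF-1 was profiled by CUT&RUN, in which an antibody tethers a nuclease to a chromatin protein and the DNA released around it is sequenced. The control group was 2 libraries of cells passaged in normal medium, and the cadmium group was 2 libraries of cells passaged for a long time in cadmium sulfate and kept at 10 µM. Both groups are populations of 1 cell line, and the cadmium cells are a selected, resistant line, so an early response to the metal and a stable change cannot be told apart. The authors merged the 2 libraries of each group before they called peaks, so each group is represented by 1 list, no spread between replicates could be measured, and every difference below is a description of 2 lists with no test.

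ABC transporters are membrane pumps that use ATP to carry substrates across a membrane. ABCB1 (P-glycoprotein) and ABCG2 (breast cancer resistance protein) export drugs, the ABCC members (the multidrug resistance proteins) export many compounds after they have been joined to glutathione, glucuronate or sulfate, and ABCB6 is linked to porphyrin transport. Glutathione conjugates include those of cadmium and arsenic, which is why the family is studied in metal resistance. MTF-1 binds DNA through zinc fingers, responds to zinc and drives genes of metal handling, the metallothioneins first among them.

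The stretches of sequence that the results return to are shown here, each 120 bases of GRCh38 in the direction of the gene it belongs to. The first group comes from the peaks at the transcription start sites (TSSs) of ABCB6, ABCC1 and ABCC3, which were present in both lists. Capitals mark TGACTCAGC or its reverse complement, 9 letters in which the AP-1 string TGACTCA lies inside the core string of the antioxidant response element.
ABCB6, intron, minus strand, chr2:219217893-219218012: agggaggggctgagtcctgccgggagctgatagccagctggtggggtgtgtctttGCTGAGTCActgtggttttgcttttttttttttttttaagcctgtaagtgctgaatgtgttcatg
ABCC1, upstream of its first annotated start, plus strand, chr16:15949018-15949137: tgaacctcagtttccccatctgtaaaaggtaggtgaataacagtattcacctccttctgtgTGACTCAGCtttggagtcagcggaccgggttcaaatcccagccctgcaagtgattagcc
ABCC3, intron, plus strand, chr17:50640845-50640964: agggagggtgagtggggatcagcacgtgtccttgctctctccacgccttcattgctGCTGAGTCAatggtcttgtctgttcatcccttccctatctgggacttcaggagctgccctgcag

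The last stretch comes from a peak found in the cadmium list alone, at ABCC4. Capitals mark antioxidant response element (ARE) core strings (TGACNNNGC), on either strand. The other strings searched were those of AP-1 (TGACTCA or TGAGTCA), of the metal response element (MRE) core (TGCACNC or TGCGCNC) and of forkhead factors.
ABCC4, intron, minus strand, chr13:95273532-95273651: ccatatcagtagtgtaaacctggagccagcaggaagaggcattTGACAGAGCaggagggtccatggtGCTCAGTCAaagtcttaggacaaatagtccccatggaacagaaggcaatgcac

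Together the 8 windows spanned 1382 kb and held 64 peaks of the control list and 58 peaks of the cadmium list. No overlap with the cadmium list was seen for 17 control peaks, or 26.6% (95% Wilson confidence interval 17.3 to 38.5%), against 27.9% of all control peaks in the genome. Conversely, 7 cadmium peaks had no counterpart in the control list, or 12.1% (5.97 to 22.9%), against 15.1% of all cadmium peaks. Both shares were thus near the background. The intervals cover counting error only and treat the peaks as independent, though many share a window. Merging peaks that overlapped gave 71 sites, of which 47 were shared, 17 were control-only and 7 were cadmium-only.

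In bases, the control list covered 121.5 kb of the windows (8.79%) and the cadmium list 84.9 kb (6.15%). The cadmium list thus covered 69.9% of the length that the control list did, and genome-wide this figure was 69.7%. Of the bases covered in control cells, 57.2% were also covered in cadmium cells, and of those covered in cadmium cells, 81.9% were also covered in control cells. The median peak width was 1599 bp in the control list and 799 bp in the cadmium list, against 1399 and 999 bp over all peaks. Sequencing depth is unknown for either list, and its part in this difference was not tested.

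**Figure D1:**
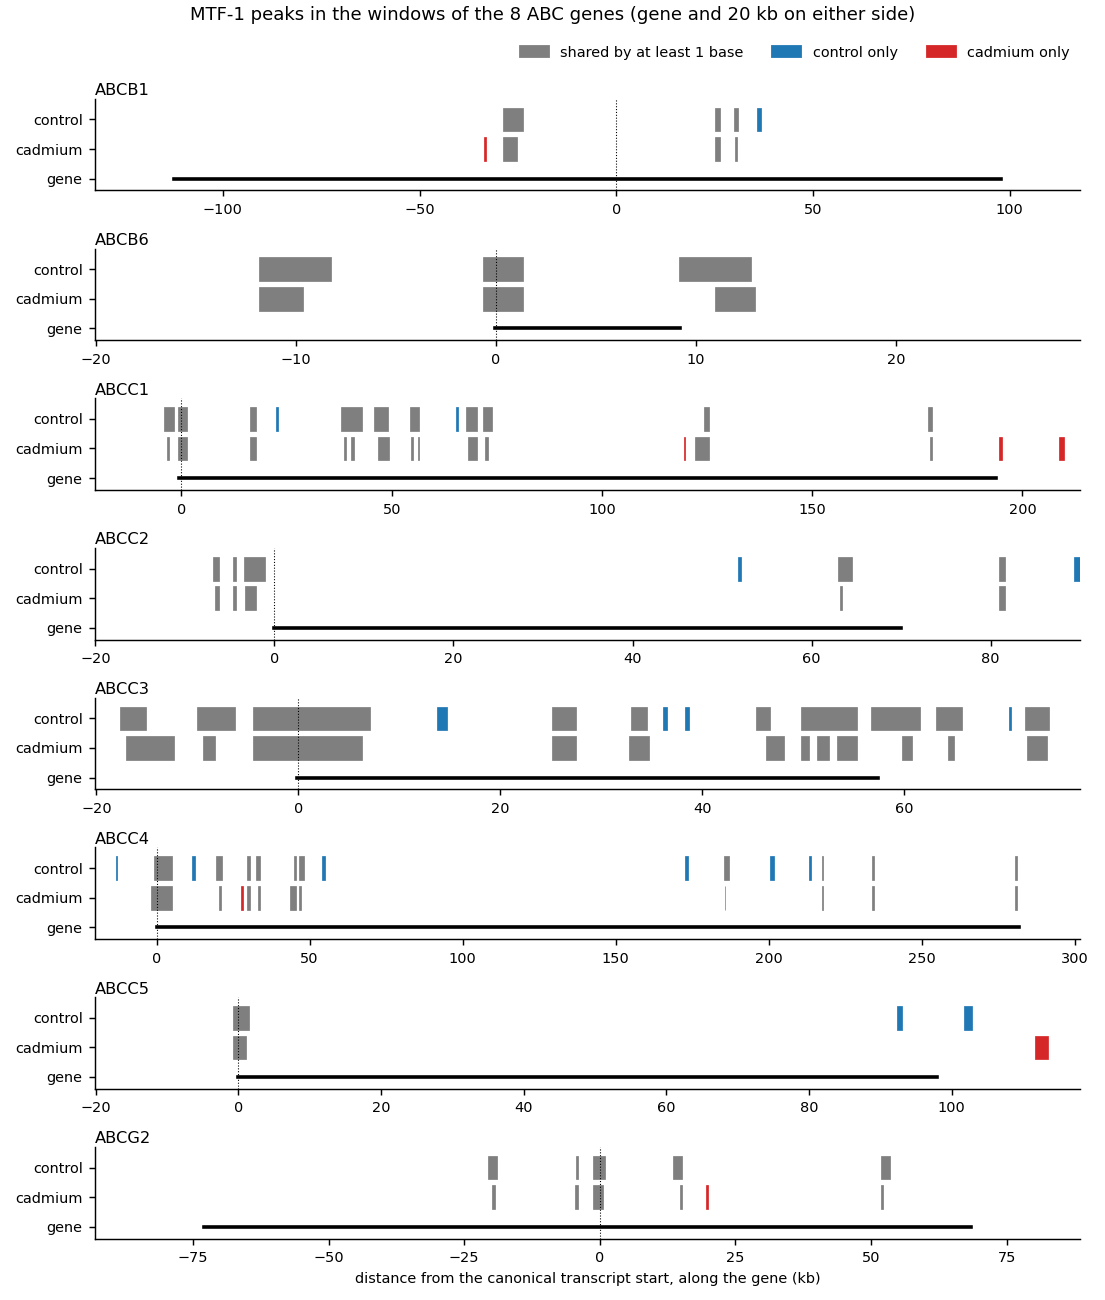
Positions of all peaks in the 8 windows, in kb from the canonical transcript start along each gene, with the control list above, the cadmium list in the middle and the gene as a black line. Grey peaks are shared, blue peaks are in the control list alone and red peaks in the cadmium list alone, and the 7 red peaks lie away from the dotted start sites.

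A peak in the control list lay within 1 kb of an annotated transcript start of 7 of the 8 genes, and of 73.4% of all protein-coding genes. In the cadmium list the same 7 genes had such a peak, and 71.7% of all protein-coding genes did. Thus 7 of 8 had a start-site peak in both lists (70.2% of all genes), and none had one in 1 list only (4.71% of all genes). This did not hold when the peak had to overlap the start itself or be at least 1000 bp wide, since ABCC2 then had one in the control list only. ABCB1 had none in either list. Counting the canonical start alone, ABCC2 also had none, and 6 genes remained in each list. The members had from 5 (ABCG2) to 17 (ABCC3) annotated start positions. The shares over all genes were not matched for the number of starts, so they are a rough background only.

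At the 6 canonical starts with a peak, the peak was identical in both lists at ABCB6 and ABCC1, shorter in cadmium cells at ABCC3, ABCC5 and ABCG2, and longer at ABCC4. At ABCC1, an exporter of glutathione and glucuronate conjugates, the peak ran from 15948801 to 15950999 on chromosome 16 (2199 bp) in both lists. At ABCB6 it ran from 219217601 to 219219599 on chromosome 2 (1999 bp) in both lists, over exons of ABCB6 and of ATG9A, the next gene upstream on the same strand. Neither edge moved at these promoters, to the resolution of the caller's 200 bp bins. All peak edges in both lists are set by these bins, so a smaller shift cannot be seen.

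At ABCC4, a pump for cyclic nucleotides and prostanoids, the start-site peak was 5999 bp in control cells and 6799 bp in cadmium cells (chr13:95296401-95302399 and chr13:95296401-95303199). The added stretch lay upstream of the start. At ABCC5, a cyclic nucleotide exporter, it was 2199 bp in control cells (chr3:184016401-184018599) and 1799 bp in cadmium cells, and at ABCG2 likewise 2199 bp (chr4:88157601-88159799) and 1799 bp. In both of these the part not called in cadmium cells was on the gene side, and the upstream edge stayed where it was.

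ABCC3, which exports organic anions and bile salts, had the broadest peak of the 8 genes. It spanned 11599 bp in control cells (chr17:50630401-50641999) and 10799 bp in cadmium cells (chr17:50630401-50641199), and it reached from upstream of the canonical start at 50634881 into the introns that follow. Here, too, the edge that moved was inside the gene.

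Over all 47 shared sites, 29 were longer in the control list, 9 were longer in the cadmium list and 9 were equal. Genome-wide, 58.0% of shared sites were longer in the control list and 23.7% in the cadmium list. The 10 shared sites within 1 kb of any start of a member had a median cadmium length of 96.6% of the control length, and the other 37 shared sites had a median of 61.1%. Several of the 10 belonged to ABCC3 alone, at its canonical start and at internal starts, so they are not independent promoters. Some of the 37 lay at starts of neighboring genes. Split by the starts of any gene, the median was 82.6% at 18 sites within 1 kb of a start and 49.98% at the other 29, and over all shared sites in the genome it was 85.7% at transcript starts (19213 sites) and 83.0% elsewhere (29405 sites). The lengths of the 10 and the 37 sites overlapped, since the peak at an internal ABCC2 start kept only 12.4% of its control length and several distal sites were equal in both lists.

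**Figure D2:**
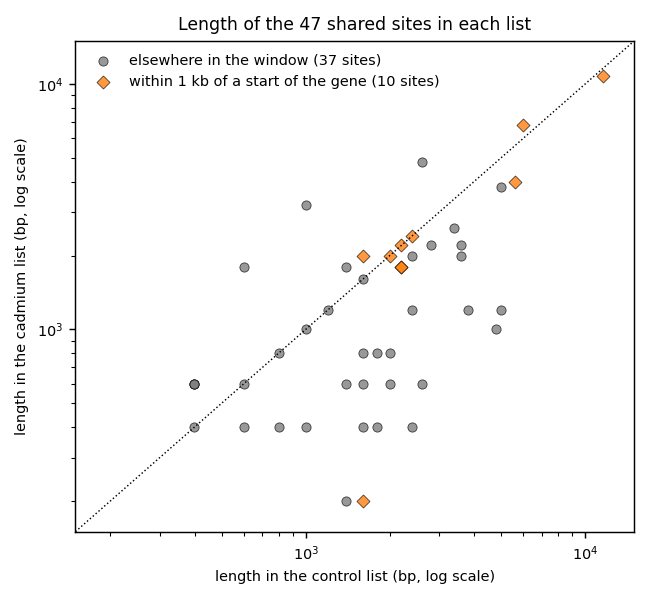
Length of each of the 47 shared sites in the control list (x axis, bp, log scale) and in the cadmium list (y axis, bp, log scale), with orange diamonds for the 10 sites within 1 kb of a transcript start of the gene and grey circles for the other 37. Most diamonds lie near the dotted line of equal length, and 29 of all 47 sites lie below it.

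ABCB1 is the classical multidrug exporter. It occupies chr7:87503017-87713323 (minus strand), with a canonical start at 87600884. Its window held 4 peaks in each list, covering 3.27% of it in control cells and 2.32% in cadmium cells. No peak of either list came within 1 kb of any of its 10 annotated start positions. Measured to its centre, the closest to the canonical start was a shared peak of 1199 bp (chr7:87574601-87575799) with its centre 25684 bp into the gene, identical in both lists. A shared peak in an ABCB1 intron, 4999 bp in control cells and 3799 bp in cadmium cells, lay over the 5′ end of RUNDC3B, a gene on the other strand, with its centre 448 bp and 228 bp from the closest of that gene's annotated starts in each case. A control-only peak of 999 bp lay in an intron (chr7:87564201-87565199). The cadmium-only peak of 399 bp (chr7:87634001-87634399) was also in an intron of ABCB1 but was closer to a start of RUNDC3B, at 4970 bp, than to any start of ABCB1, at 33316 bp.

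ABCB6 is the shortest of the genes, at 9.2 kb (chr2:219209772-219218994, minus strand), and lies among close neighbors. Its window held 3 peaks in each list and no unique peak. Coverage was 18.7% in control cells and 12.6% in cadmium cells. Beside the start-site peak, the other pair of peaks had their closest starts in neighbors. A peak over ZFAND2B went from 3599 to 1999 bp, and a peak over ATG9A and ANKZF1 went from 3599 bp to 2199 bp. The loss of covered bases in this window therefore lay almost wholly outside ABCB6, and within the gene itself the control list covered 0.30 percentage points more than the cadmium list.

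ABCC1 spans chr16:15949138-16143257 (plus strand). Its window held 12 control and 15 cadmium peaks, and coverage was 10.4% in control cells and 7.34% in cadmium cells. The list with more covered bases changed along the gene. In the 5′ part of the window, split at its midpoint, the control list covered 22590 bases and the cadmium list 11590. In the 3′ part the control list covered 1798 bases and the cadmium list 5595. Among the 8 genes, no other had more bases covered in cadmium cells in either part of its window, and this split was made after the peaks were seen. It was made for these 8 genes only, so how common such a pattern is among other genes is unknown. Of the cadmium bases in the 3′ part, 3199 came from 1 site, and peaks of 799 and 999 bp lay past the end of ABCC1.

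In the 5′ part of ABCC1, most intronic sites were shorter in cadmium cells. A control peak of 4999 bp (chr16:15987601-15992599) was left as a pair of cadmium peaks of 599 bp each, and one of 1999 bp (chr16:16004001-16005999) as peaks of 399 and 199 bp. A peak upstream of the start shortened from 2399 bp to 399 bp. Control-only peaks of 599 bp lay in introns at chr16:15972001-15972599, which holds an AP-1 and a forkhead string, and at chr16:16014801-16015399. The peak at the start itself and the intronic peak of 1599 bp 16984 bp past the canonical start were unchanged in position.

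In the 3′ part, an intronic site grew from 999 bp (chr16:16074001-16074999) to 3199 bp (chr16:16071801-16074999), and the other shared site there shortened from 799 to 399 bp (chr16:16127201-16127999). A cadmium-only peak of 199 bp, a single bin of the caller, lay beside the longer site at chr16:16069201-16069399. A cadmium-only peak of 799 bp (chr16:16144001-16144799) lay just past the 3′ end of ABCC1.

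The third cadmium-only peak of this window, 999 bp (chr16:16158401-16159399), lay in an intron of the neighboring gene ABCC6, and both downstream peaks were closer to a start of ABCC6 (11376 and 3124 bp) than to one of ABCC1.

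ABCC2 encodes an exporter of conjugates at the apical membrane of liver and kidney cells. It occupies chr10:99782640-99852594 (plus strand). Its window held 7 control and 5 cadmium peaks, and all cadmium bases lay within control peaks. Coverage was 5.99% in control cells and 2.54% in cadmium cells, so the cadmium list covered 42.4% of the control length. Upstream of the start, 3 shared sites stood in a row, with centres 6540, 4440 and 2240 bp from it in control cells. The nearest fell from 2399 bp (chr10:99779201-99781599) to 1199 bp, and its edge lay 1041 bp from the start in control cells and 2041 bp in cadmium cells. The site within 1 kb of a start was at an internal start (99845749) in the 3′ part of the gene, where 1599 bp in control cells were left as 199 bp in cadmium cells.

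The 2 control-only peaks of ABCC2 were 1 of 399 bp over an exon (chr10:99834401-99834799) and 1 of 2199 bp downstream (chr10:99872001-99874199), the widest control-only peak of all 8 windows. The latter crossed the edge of the window and had DNMBP as the gene with the closest start. No cadmium-only peak was found in the window.

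ABCC3 was the most densely covered member. It occupies chr17:50634777-50692253 (plus strand). Its window held 14 control and 12 cadmium peaks, which covered 41.8% of it in control cells and 31.4% in cadmium cells. In order of coverage it was 1179 of 19970 protein-coding genes in control cells and 1255 in cadmium cells. Beside the broad start-site domain, a shared peak of 2399 bp in the body of the gene was identical in both lists (chr17:50660001-50662399), and one at an internal start went from 1599 bp to 1999 bp (chr17:50667601-50669599). A peak of 5599 bp near the 3′ end (chr17:50684601-50690199) was left as 3 cadmium peaks of 799, 1199 and 1999 bp.

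ABCC3 also had 4 control-only peaks and no cadmium-only peak. The widest was 999 bp in an intron (chr17:50648601-50649599). Over its whole width it held an AP-1, a forkhead and an MRE core string, none wholly within the 500 bp around its centre. Another, 399 bp at chr17:50673201-50673599, had its edge 16 bp from an internal ABCC3 start and was the only unique peak of either list within 1 kb of a member's transcript start. A peak of 4799 bp that ran from the last exon of ABCC3 into ANKRD40 shortened to 999 bp, and one of 2599 bp in ANKRD40 to 599 bp. Upstream, over CACNA1G, a peak of 2599 bp lengthened to 4799 bp, while the one next to it shortened from 3799 to 1199 bp.

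ABCC4 is the longest gene, 281.6 kb (chr13:95019835-95301475, minus strand). Its window held 16 control and 11 cadmium peaks, with 6.40% covered in control cells and 4.54% in cadmium cells. It had 6 control-only peaks, the most of the 8 genes, from 399 to 1599 bp wide. The widest (chr13:95099601-95101199) was intronic and held a pair of AP-1 strings and a forkhead string, all outside the 500 bp around its centre. Another, of 999 bp (chr13:95246401-95247399), overlapped an exon. Of its 10 shared sites, 4 were longer in cadmium cells and 4 in control cells, and 1 intronic site grew from 599 to 1799 bp (chr13:95256001-95257799). The cadmium-only peak of 599 bp (chr13:95273201-95273799) was intronic, 27802 bp from the closest ABCC4 start and 463 bp from that of a non-coding gene, ENSG00000289887, and held the ARE core strings printed above but no AP-1 or MRE core string.

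ABCC5 occupies chr3:183919934-184017939 (minus strand). Only 3 control and 2 cadmium peaks were found in its window, and the start-site peak was the one shared site. Coverage was 3.04% in control cells and 2.61% in cadmium cells. The control-only peaks lay at and past the 3′ end, at chr3:183915001-183916199 (1199 bp) and, over an exon, at chr3:183924801-183925599 (799 bp). The cadmium-only peak was the widest of its class in the 8 windows, 1799 bp at chr3:183904401-183906199, over exons of the pseudogene CYP2AB1P. It held 1 MRE core and 1 ARE core string, both outside the 500 bp around its centre.

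ABCG2 occupies chr4:88090150-88231628 (minus strand). Its window held 5 control and 6 cadmium peaks and no control-only peak. Coverage was 4.19% in control cells and 2.31% in cadmium cells. Both peaks downstream of the start in the introns shortened to 399 bp, from 1799 bp (chr4:88143401-88145199) and from 1599 bp (chr4:88105201-88106799), while of the pair upstream of the canonical start, one lengthened from 399 to 599 bp (chr4:88162601-88163199) and the other shortened from 1599 to 599 bp (chr4:88177601-88179199). The cadmium-only peak of 399 bp (chr4:88138601-88138999) was intronic, 19839 bp past the canonical start. It held none of the 4 strings searched.

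**Figure D3:**
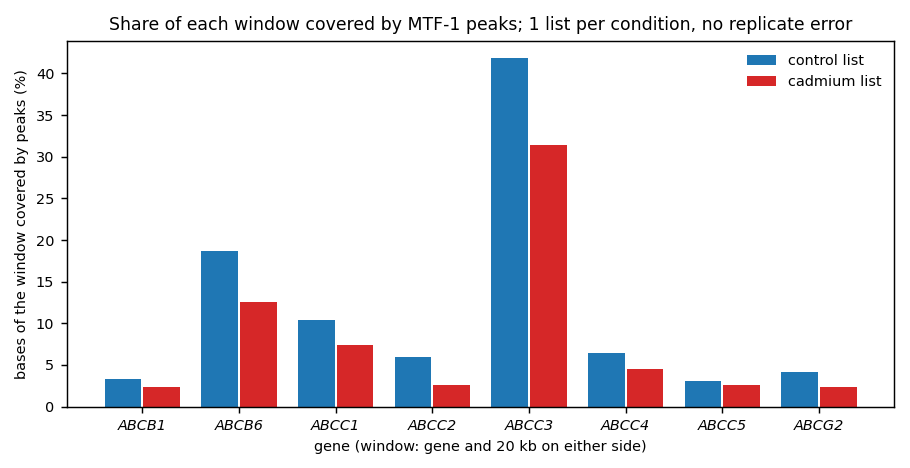
Percent of each window covered by peaks of the control list (blue) and of the cadmium list (red), with 1 list per condition and so no error bars. ABCC3 stands at 41.8% and 31.4%, and the blue bar is the taller in all 8 genes with this window.

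The control list covered more bases than the cadmium list in 8 of 8 windows, in 29 of the 38 other ABC genes and in 66.5% of all protein-coding genes. The cadmium list covered more in 21.6% of all genes, and the rest were equal, among them 1855 genes with no peak. The difference ranged from 0.43 percentage points of the window at ABCC5 to 10.5 at ABCC3, with a median of 2.48 over the 8 genes and of 1.17 over all genes. The sign at ABCC5 turned with the window (−0.61 points with 50 kb on either side) and with the peaks used (−0.14 points with peaks of at least 1000 bp). At least 1 control-only peak was found in 6 of the 8 windows (46.1% of all genes) and at least 1 cadmium-only peak in 5 (31.2%). These windows were longer than most, with a median of 159.7 kb against 67.5 kb over all genes, and each held a peak. Their counts of windows with a unique peak, or covered more in the control list, therefore cannot be set directly beside the shares over all genes.

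None of the 7 cadmium-only peaks overlapped an exon of a member. Of these peaks, 4 were in introns and 3 downstream, with centres from 6874 to 38323 bp from the closest start of the member. For only 2 of them was the closest start of any gene that of the member. Of the 17 control-only peaks, 9 were in introns, 4 overlapped exons, 3 were downstream and 1 was upstream, and for 11 of them the member had the closest start. Cadmium-only peaks had a median width of 599 bp and control-only peaks of 799 bp, against 599 and 999 bp over all such peaks in the genome. For the positions and closest starts, no share over all unique peaks was computed. These counts of 7 and 17 peaks therefore have no background to be set beside.

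In the 500 bp around the peak centre, forkhead strings (the letters ATAAACA, the letters ATAAATA, and both of these with G as their first base) were present in 10 of the 17 control-only peaks, against 41.1% of all control-only peaks in the genome, and in 1 of the 7 cadmium-only peaks, against 25.5% of all cadmium-only peaks. AP-1 strings were present in 3 control-only peaks (24.5% of all) and 2 cadmium-only peaks (32.6% of all). The ABCC1 peak of 199 bp was 1 of these 2 and also the 1 cadmium-only peak with a forkhead string. It holds 12 letters typical of Alu repeats, which have very many copies in the genome, and is narrower than the 500 bp searched. Over whole peaks, these letters were in 2 of the 7 cadmium-only peaks, this one and that of ABCC5 (6.47% of all). They were in 2 of the 17 control-only peaks (13.6% of all). MRE core strings were in 4 control-only peaks (28.8% of all) and 1 cadmium-only peak (30.6% of all). ARE core strings were in 4 control-only peaks (18.4% of all) and 1 cadmium-only peak (23.5% of all). An AP-1 string followed by GC also counts as an ARE core string. No test was made on these 7 and 17 peaks, and a match says only that the letters are there.

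The letters TGACTCAGC, singled out after their positions were seen, were present in 3 of the 6 cadmium-list peaks at canonical starts, those of ABCB6, ABCC1 and ABCC3 shown at the outset. In 2 of these peaks the letters lay inside the gene and not at the start. They began at 50640901 in ABCC3 (canonical start 50634881) and at 219217949 in ABCB6 (canonical start 219218958, minus strand). Of all cadmium peaks from 1799 to 10799 bp wide at starts of coding genes, 6.01% held them. Over all peaks of the windows they were in 6 of 64 control peaks (5.95% of all control peaks) and 6 of 58 cadmium peaks (6.08% of all cadmium peaks), near the background, and in none of the unique peaks. Outside the starts they lay in shared peaks upstream of ABCC2 and in introns of ABCC1 and ABCG2.

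The rest of the family gives the setting of the 8 genes. GENCODE holds 38 other protein-coding ABC genes, from lipid transporters of the ABCA group to the ABCE and ABCF proteins, which work at the ribosome and transport nothing. Of these, 24 had a start-site peak in both lists, 5 in the control list only, 0 in the cadmium list only and 9 in neither. Among those with a start-site peak in control cells only were ABCA13, ABCB4, ABCC8 and ABCC9. At ABCB4, the phosphatidylcholine floppase of bile, coverage went from 4.71% to 0.67% of the window. The median coverage was 4.49% and 4.11% over the other ABC genes, against 6.20% and 3.57% over the 8 members and 7.07% and 5.17% over all protein-coding genes.

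The largest falls in coverage were at ABCF2 (54.2% to 15.8%), ABCB8 (78.4% to 45.8%) and ABCF3 (38.8% to 15.9%). Coverage was higher in the cadmium list at 3 of the 38 other genes, among them ABCA2 (58.9% and 75.3%) and ABCC6 (2.81% and 5.08%). ABCC6 and ABCC1 are neighbors, and their windows share the cadmium-only peaks downstream of ABCC1. By coverage in the 2 lists, and among the 38 other ABC genes only, the gene nearest to ABCC3 was ABCF1 (38.3% and 26.1%), that nearest to ABCC1 was ABCA3 (10.1% and 6.86%), and that nearest to ABCB6 was ABCB9 (20.8% and 17.9%). ABCA5 (3.58% and 2.60%) was nearest to ABCB1, ABCC5 and ABCG2 alike, and ABCG1 (5.81% and 4.36%) to ABCC2 and ABCC4. This likeness rests on 2 values per gene.

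**Figure D4:**
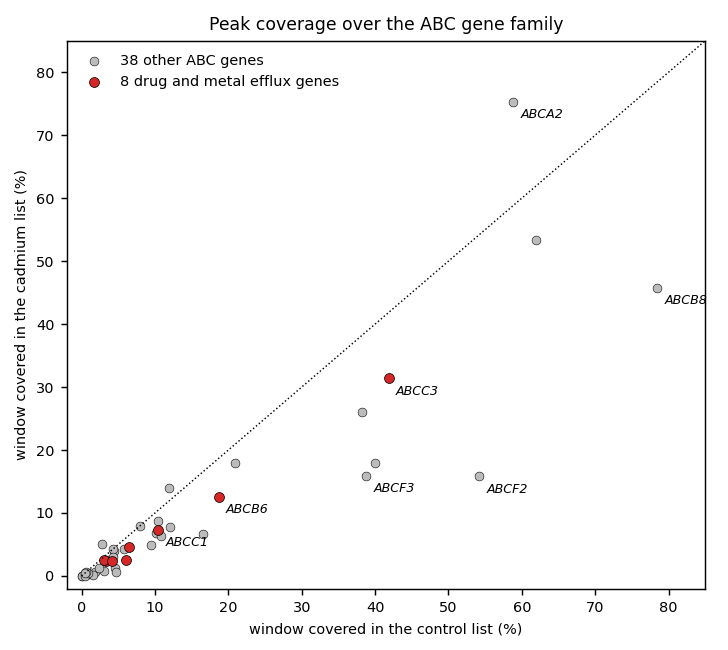
Percent of the window covered in the control list (x axis) and in the cadmium list (y axis) for the 8 efflux genes (red) and the 38 other ABC genes (grey). Points below the dotted line are covered more in control cells, and ABCC3 is the red point at 41.8% and 31.4%.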

How the data were processed

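CUT&RUN peaks of MTF-1 were taken as the authors deposited them, as 1 list of peak starts and ends per condition on hg38. No other column held a measurement. Per their methods, the authors trimmed adaptors, aligned reads with Bowtie2, pooled both replicates of a condition with SAMtools 1.8 and called peaks with Epic2 (0.0.50, under the name SICER in the submitters' processing notes) at default settings. No control library is named, and the depth is unknown here. Merging means that presence or absence of a narrow peak has no replicate behind it.

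Genes and transcripts were from GENCODE 44. The deposited peak positions fit the chromosome lengths of GRCh38 except 1 mitochondrial peak per list, which ends at the last 200 bp bin. A peak was shared when at least 1 base overlapped the other list. Distances were measured from the peak centre. Exact strings were searched on both strands of sequence taken with pysam 0.24.0. The overlap, window and string steps were tested on simulated data. The members and gene lists were chosen with earlier results of these data known. Peaks named by rule are all cadmium-only and start-site peaks and the widest control-only and shared peak of each window; other peaks, among them those that differed in length, were named after their values were seen. Named ABC genes are those with a start-site peak in 1 list, the 3 extremes of the difference in either direction and the nearest to each member. No test was made, since each condition has 1 list. Some genes and sequences that these rules select are not reported here.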

Additional observations from a re-analysis of the deposited data

How the results depend on the processing

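No paired analysis was possible because the replicates of each condition were merged before peak calling, and for the same reason no replicate could be left out. The share of control-only peaks, 26.6%, was 44.7% with both lists cut to peaks of at least 1000 bp (42.3% over all control peaks so cut). In that setting a wide control peak that met only narrower cadmium peaks counted as control-only. The rise therefore does not show that wide peaks are more often unique. If sharing required 50% of the peak, the share was 57.8% (46.2% over all). Cadmium-only peaks, 12.1%, were 2 of 36 (5.56%) among peaks whose closest transcript start was that of the member. Control-only peaks were 11 of 41 (26.8%) in that setting. No share over all peaks was computed for it, so these values have no background to be set beside. ABCC5 was the only gene whose difference in coverage changed sign, to −0.61 points with 50 kb flanks and −0.14 points with peaks of at least 1000 bp. Of the 40 pairs of a gene and an alternative, 38 kept their direction. Other ABC genes with a control-only peak fell from 19 to 12 with gene bodies alone. Over whole peaks instead of 500 bp, which is more sequence for wide peaks and less for narrow ones, 2 cadmium-only peaks had an ARE core and 3 an MRE core, and 7 control-only peaks had AP-1 and 7 an MRE core. The number of members with a start-site peak was 5 to 7 in each list under the alternatives, with 7 in the control and 6 in the cadmium list for peaks over the start itself or of at least 1000 bp. Depth is unknown, and its effect was not tested.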

Other observations

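Part of the MRE core strings in these windows lay in sequence typical of Alu repeats, a family of short interspersed elements with very many copies. A 12-base string that occurs in the Alu consensus and contains an MRE core string accounted for 30 of 122 MRE core strings in the control peaks of the 8 windows (24.6%) and for 12 of 88 in the cadmium peaks (13.6%). Over all peaks it accounted for 14.6% in the control list and 11.3% in the cadmium list. The ARE core string TGACAGAGC was counted in the same way as Alu-like. It made up 6 of 49 ARE core strings in the control peaks of the windows (12.2%) and 6 of 41 in the cadmium peaks (14.6%). Over all peaks it made up 10.6% and 8.61%. One of the strings marked at ABCC4 has these letters, which alone do not place a site in a repeat. No repeat annotation was used, and reads of repeats can be placed at the wrong copy, so counts of these strings should be read with that in mind.

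The 300 bp promoters of RefSeq were also searched, of which none was matched to ABCC1 or ABCC3. Of the entries for ABCB1, ABCB6, ABCC2, ABCC4, ABCC5 and ABCG2, none held an AP-1 string, which 4.95% of all 35116 promoters did. An MRE core string, present in 29.6% of all promoters, was found at ABCC2, ABCC4 and 2 of the 5 ABCG2 entries. The ABCC2 promoter, 125 bases upstream of whose start the string begins, overlapped no peak of either list, and both ABCB1 promoters overlapped none either. The ABCC4, ABCB6 and ABCC5 promoters lay wholly inside a peak of both lists. So did the ABCG2 entries, except the one at chr4:88231577-88231876, which overlapped no peak. An ARE core string, present in 13.3% of all promoters, was found at ABCB6, ABCC4 and the ABCG2 entry at chr4:88159241-88159540.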
